A study of Homo sapiens with 2 samples.

Results

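IGF2BP3 was immunoprecipitated from UV-crosslinked OE-19 cells, a line of adenocarcinoma of the esophagogastric junction, and the RNA under the protein was read by LACE-seq in 2 replicates of 1 untreated group. The wide peaks were chosen by their own measured width: every called peak whose end minus start was 800 bp or more was kept. This gave 1374 of 21142 peaks in replicate 1 and 1249 of 20799 peaks in replicate 2, 2623 of 41941 peaks in all. The remaining 19768 and 19550 peaks are called narrower here. The line stands for 1 patient's tumour and no knockdown, input or control-antibody library was analysed here, so a peak could not be set against background RNA. As a check of the label, all 6 epithelial markers looked up (CDH1, EPCAM, ERBB2, KRT8, KRT18 and KRT19) carried a peak in both replicates, whereas none of 3 leukocyte markers did and, of 4 fibroblast markers, COL1A1 carried a peak in replicate 2. The 6 were a chosen set: of 5 epithelial keratins listed below, 3 carried a peak in each replicate, and KRT7 and KRT20 carried none.

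IGF2BP3 is an oncofetal RNA-binding protein that binds mature mRNA in the cytoplasm, where members of its family are known to stabilise transcripts and to read N6-methyladenosine, often in a GGAC context. LACE-seq copies the crosslinked RNA from linkers, lets the reverse transcriptase stop at the crosslinked base and amplifies the cDNA ends linearly. A peak is a stretch in which reads pile up above the local level, its summit is the base with the highest pileup, and a wide peak is a long stretch without a gap that the caller would have split.

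The sequences below are windows of the hg38 genome around the replicate 1 summit, written 5′ to 3′ on the strand of the gene in lower case, with each GGAC in capitals. They come from the widest peaks that were wide in both replicates with summits at most 50 bp apart, in coding sequence and in the 3′UTR, and they are shown because they are the best localised points inside otherwise long peaks. In each class they were taken from the widest with GGAC in the window and from the widest without it. Windows in the 3′UTR were kept to 30 bases.
ZBTB20, coding sequence, chr3:114351361-114351461, minus strand: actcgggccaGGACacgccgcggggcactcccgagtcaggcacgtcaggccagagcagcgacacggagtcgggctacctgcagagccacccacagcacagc
FOXA1, coding sequence, chr14:37591602-37591702, minus strand: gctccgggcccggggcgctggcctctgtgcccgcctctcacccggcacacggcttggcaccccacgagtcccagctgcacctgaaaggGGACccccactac
HNRNPF, coding sequence, chr10:43387107-43387207, minus strand: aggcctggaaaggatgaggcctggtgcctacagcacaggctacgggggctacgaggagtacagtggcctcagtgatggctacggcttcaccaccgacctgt
SMAD7, 3′UTR, chr18:48921125-48921154, minus strand: ggaagaaggggcaggtatgatcggcaGGAC
SHISA5, 3′UTR, chr3:48468545-48468574, minus strand: ctggccaagttGGACtttgatcctttgggc
TP53I11, 3′UTR, chr11:44934345-44934374, minus strand: ctctccacatgcacaccctgaaaacacaca

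ZBTB20, a zinc finger transcriptional repressor, had peaks of 1626 and 1551 bp with summits 8 bp apart. FOXA1, a forkhead pioneer factor of endodermal epithelia, had peaks of 1464 and 1360 bp with summits 7 bp apart. The 2 FOXA1 peaks overlapped only in part, at chr14:37590469-37591932 in replicate 1 and chr14:37591404-37592763 in replicate 2. HNRNPF, an RNA-binding splicing factor, had peaks of 1711 and 1443 bp with summits 8 bp apart. The closeness of these summits is what the genes were picked for, and it held for 39.6% of the pairs that were wide in both lists. In the 3′UTR, the summits lay 11 bp apart in SMAD7, 6 bp in SHISA5 and 9 bp in TP53I11, again by the choice of pairs.

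The wide peaks were 6.50% of the peaks and 16.7% of the bases under peaks in replicate 1, and 6.01% and 15.2% in replicate 2. Their median width was 1010.5 bp in replicate 1 and 997 bp in replicate 2, with maxima of 2826 bp and 2624 bp, and the narrower peaks had medians of 328 bp and 334 bp. The threshold cut through a continuous tail: 39 and 43 peaks fell in the last 10 bp below 800 bp, and 52 and 44 peaks in the first 10 bp from it. No gap in the widths thus set the wide peaks apart as a separate class.

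**Figure D1:**
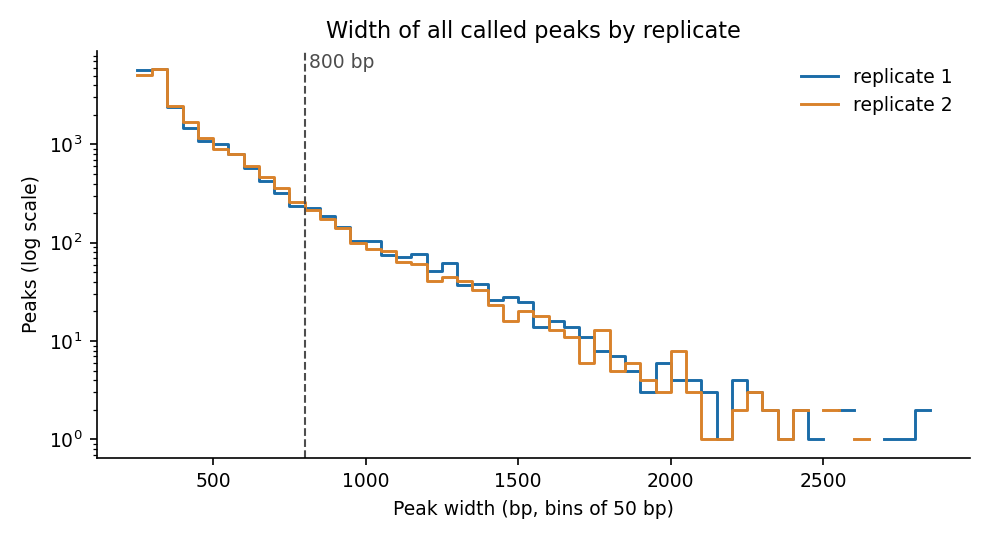
Number of peaks (log scale) in each 50-bp bin of peak width for replicate 1 and replicate 2, with the 800 bp line dashed; empty bins are not drawn. Both lists decline without a step at 800 bp, and their widest peaks were 2826 bp and 2624 bp.

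The wide peaks were also tall, which is a description because height and width come from the same reads. The median pileup at the summit, in reads, recovered from the deposited fold and p-value, was 60 in wide peaks against 21 in narrower peaks in each replicate. The median fold over the local level was 7.10 in wide and 6.86 in narrower peaks of replicate 1, and 7.04 and 7.13 in replicate 2. Wide peaks thus held more reads at their summit but were not more enriched over their surroundings. The median −log10 q was 27.6 and 28.4 in wide peaks and 11.4 and 11.9 in narrower peaks. Read depth per library was not known from the peak lists.

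Nearly every wide peak was found again in the other replicate. Of all peaks, 60.1% in replicate 1 and 61.2% in replicate 2 overlapped a peak of the other list by at least 1 bp. Among wide peaks the share was 95.2% (1308 of 1374, Wilson 95% interval 93.9 to 96.2%) in replicate 1 and 95.0% (1187 of 1249, 93.7 to 96.1%) in replicate 2. Among narrower peaks it was 57.6% and 59.1%. The difference passed Fisher's exact test in both replicates (2-sided, adjusted p = 5.22e-213 and 3.34e-181). These tests take peaks as independent, although peaks of 1 gene share its RNA, and their p-values cover the spread between peaks within a library only. The mean difference of 36.8 percentage points was 14.6 against narrower peaks of 500 bp or more and 7.94 against narrower peaks at or above the 75th percentile of −log10 q, each in the same direction and past the threshold.

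A long interval is met by chance more easily than a short one, so the summit gave a stricter reading. The summit of a wide peak lay inside a peak of the other list in 89.4% and 89.1% of cases, against 55.7% and 57.3% for narrower peaks (adjusted p = 3.02e-154 and 3.45e-128, Fisher's exact test). A summit of the other list lay within 50 bp of the wide peak's own in 42.3% and 37.4% of cases, against 33.5% and 34.5% (adjusted p = 1.41e-10 and 0.0370, Fisher's exact test). Wide peaks thus recurred by any overlap in 95.2% and 95.0% of cases and by the summit lying inside a peak in 89.4% and 89.1%. As summit positions they recurred in about 4 of 10. The chance level of these shares was not measured. Where peaks of like height were set side by side, the order of the last measure turned, with no test made. Among peaks with 60 to 119 reads at the summit, 48.4% of wide and 54.1% of narrower peaks of replicate 1 had a summit of the other list within 50 bp, and 42.7% and 54.2% in replicate 2, while any overlap stayed higher in wide peaks (98.2% against 85.1% and 97.6% against 84.3%).

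**Figure D2:**
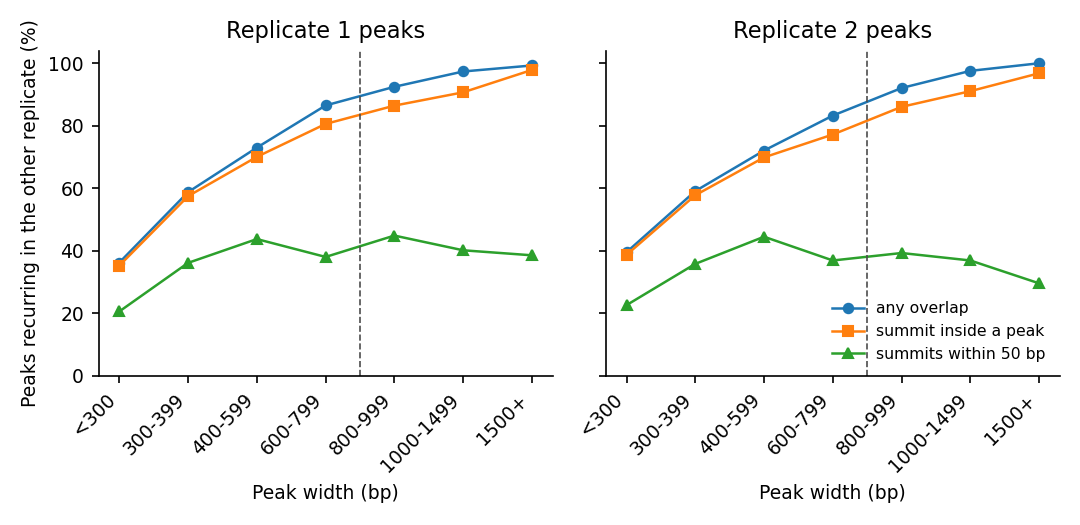
Share of peaks (%) of each width bin that recurred in the other replicate, by any overlap (circles), by the summit lying inside a peak (squares) and by summits within 50 bp (triangles), with replicate 1 peaks on the left, replicate 2 peaks on the right and the 800 bp line dashed. Overlap rose with width to 99.3% and 100% in peaks of 1500 bp or more, whereas summits within 50 bp were 38.6% and 29.6% there.

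The wide peaks that were not met again were few and short among their kind. In replicate 1 there were 66, with a median width of 870 bp and a median pileup of 34 reads, and in replicate 2 there were 62, with medians of 869 bp and 31.5 reads. The widest of replicate 1 was a 1681 bp peak in the coding sequence of PRR36 with a pileup of 53 reads, followed by a 1499 bp peak in the 3′UTR of SYPL1, which encodes a synaptophysin-like vesicle protein, and a 1220 bp peak in the 3′UTR of ALG12, a mannosyltransferase of N-glycan assembly. The widest of replicate 2 was a 1419 bp peak in the coding sequence of MFHAS1, followed by 1361 bp in FAM83H and 1295 bp in the 3′UTR of IGFBP3, an insulin-like growth factor carrier. The nearest summit of the other replicate was 1457 bp away for SYPL1 and 84085 bp away for IGFBP3, so a peak of the other list lay nearby for SYPL1 and none did for IGFBP3.

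Width was a property that wide peaks shared across replicates only in part. Of all overlapping peaks, 11% in replicate 1 and 12.3% in replicate 2 had a partner of 800 bp or more. Among overlapping wide peaks this share was 54.2% (709 of 1308, 95% interval 51.5 to 56.9%) in replicate 1 and 59.7% (709 of 1187, 56.9 to 62.5%) in replicate 2, against 6.06% and 7.43% among overlapping narrower peaks. The difference passed Fisher's exact test in both replicates, at p = 1e-300, the smallest value computed. The other 599 and 478 overlapping wide peaks met a narrower partner, whose median width was 561 and 533 bp and whose median pileup was 36 and 37 reads. Where the partner was wide, the median pileup was 71 reads on either side.

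The 709 wide peaks of replicate 1 whose widest partner was wide lay in 652 genes. In 524 of them (73.9%) both widths were within 1.25-fold, and replicate 1 was the wider in 396. The summits had a median distance of 127 nt, and 281 (39.6%) had summits within 50 bp. The class of the summit was the same in 593 (83.6%), most often the 3′UTR (301) or the coding sequence (221). Since both peaks of a pair had to reach 800 bp, the closeness of their widths is a description of pairs chosen on width. Over all 12701 overlapping pairs of any width, the Spearman rho of the widths was 0.55, a description over pairs from the same 2 libraries.

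**Figure D3:**
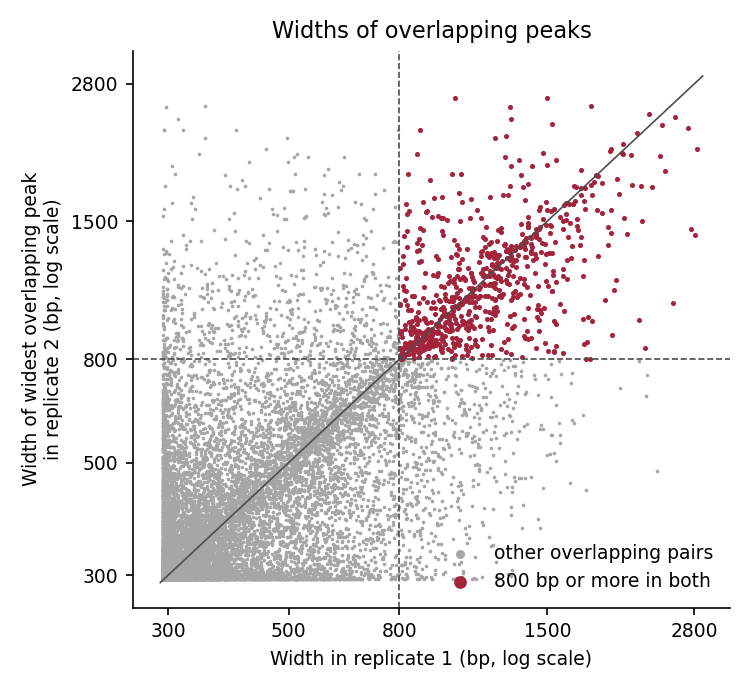
Width in replicate 1 (bp, log scale) against the width of the widest overlapping peak in replicate 2 (bp, log scale) for all 12701 overlapping pairs, with the 709 that are 800 bp or more in both in red, the 800 bp lines dashed and equal widths on the diagonal. The red points are those beyond both 800 bp lines, and 73.9% of them have widths within 1.25-fold.

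A wide peak was at times several peaks in the other list. In replicate 1, 18.0% of wide peaks overlapped 2 or more peaks of replicate 2, and in replicate 2, 16.3% overlapped 2 or more of replicate 1, against 0.541% and 0.609% of narrower peaks. A longer peak has more room to meet 2 peaks, so the width rule itself favours this contrast, and no test was made. CD164, a sialomucin of the cell surface and lysosome, had a peak of 2385 bp in replicate 1 where replicate 2 had 4 peaks, the widest of them 482 bp, which together covered 66.5% of it. SAPCD2, a regulator of spindle orientation, had 2270 bp in replicate 2 where replicate 1 had 4 peaks, the widest of them 874 bp. YWHAG, a 14-3-3 protein, had 2554 bp in replicate 1 where replicate 2 had 3 peaks of at most 1035 bp. In these genes the same exon was called as 1 stretch in one list and as a row of shorter stretches in the other. These genes were named after their values were seen.

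Wide peaks lay mostly in exons of mRNA. At the summit, 49.8% of wide peaks in replicate 1 and 42.3% in replicate 2 were in a 3′UTR, against 20.4% and 16.6% of narrower peaks (adjusted p = 2.74e-118 and 1.23e-93, Fisher's exact test over 12 comparisons). Coding sequence held 36.0% and 41.1% of wide and 28.7% and 29.3% of narrower peaks (exact test, adjusted p = 2.17e-08 and 1.71e-17). Introns held 3.94% and 2.81% of wide and 28.2% and 25.9% of narrower peaks (exact test, adjusted p = 1.24e-115 and 9.16e-106). The 3′UTR and the coding sequence were thus the most frequent classes of wide peaks, and introns, which held over 1 in 4 narrower peaks, held few of them.

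The other 3 classes were also lower among wide peaks in both replicates. The 5′UTR held 2.55% and 7.30% of wide against 6.97% and 12.3% of narrower peaks (exact test, adjusted p = 2.85e-12 and 2.49e-08). Exons of non-coding genes or transcripts held 5.84% and 4.97% against 11.0% and 10.2% (exact test, adjusted p = 2.44e-10 and 2.09e-10), and no gene was found at 1.82% and 1.44% against 4.74% and 5.71% (adjusted p = 3.00e-08 and 2.03e-13). By this test all 6 classes differed in both replicates. Against narrower peaks of 500 bp or more, the mean difference in coding sequence turned from 9.56 to −1.49 percentage points and did not pass the test, that in introns shrank from −23.7 to −3.42, and those of the 3′UTR (15.6) and the 5′UTR (−6.37) passed. Over all bases, 88.7% and 89.8% of wide peaks were exonic, against 68.2% and 68.4% of narrower peaks.

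**Figure D4:**
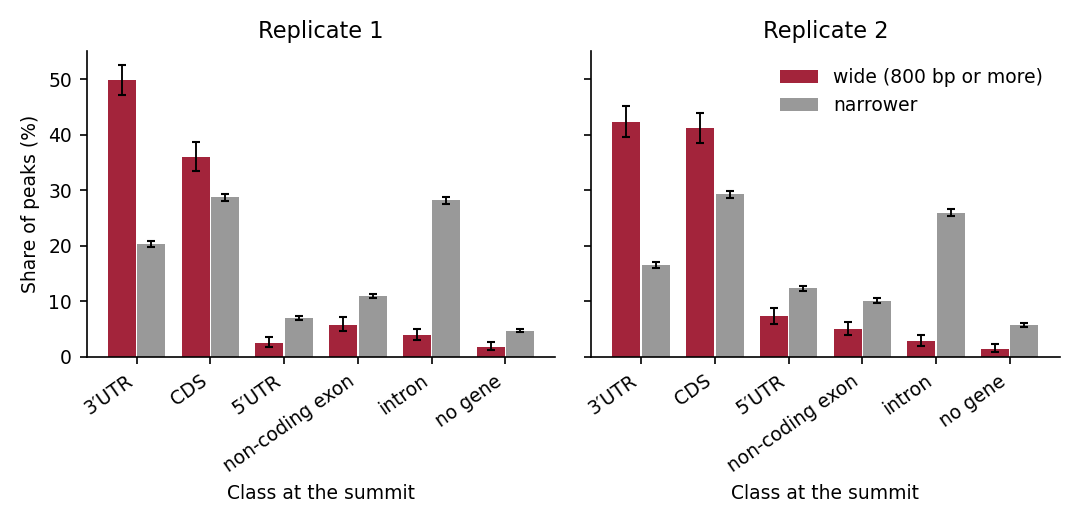
Share of peaks (%) by the annotation class at the summit for wide peaks (red) and narrower peaks (grey) in each replicate; error bars are Wilson 95% intervals, which cover counting error only. The 3′UTR held 49.8% and 42.3% of wide peaks, and introns held 3.94% and 2.81%.

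Wide peaks lay mostly in long exons. Of the wide peaks with an exonic summit, 91.8% and 90.5% were in a merged exon of 800 bp or more, against 59.3% and 53.0% of narrower peaks (adjusted p = 7.57e-142 and 1.80e-161, Fisher's exact test). A peak of 800 bp or more that stays within 1 exon needs an exon of that length. The width rule itself thus favours this outcome, and the test cannot show a trait apart from it. Of those in an exon of the canonical transcript, 74.4% and 66.3% were in its last exon, against 48.7% and 42.5% (exact test, adjusted p = 3.95e-69 and 2.66e-54). The last exon, which usually holds the stop codon and the 3′UTR, was examined after the other values had been seen. Last exons were also the longest: under narrower peaks of replicate 1 touching 1 canonical exon, their median was 2552 bp, against 425 bp for first and 324 bp for internal exons. The width rule thus favours last exons too, and their share was not compared within exons of 800 bp or more. When the comparison was limited to summits in exons of 800 bp or more, also added after the data were seen, the 3′UTR difference shrank from 27.6 to 6.64 percentage points and still passed the test, while the differences for coding sequence (3.79) and the 5′UTR (−0.536) did not.

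Stop and start codons, here and below, were those of any annotated transcript of the gene, at distances along the genome. Such stop codons can lie in internal exons. In ACTB, summits in an internal coding exon were 49 and 60 nt from one. A stop codon lay within 200 nt of the summit in 25.2% and 22.4% of wide peaks and in 19.9% and 18.3% of narrower peaks (adjusted p = 3.25e-05 and 7.17e-04, Fisher's exact test). Within exons of 800 bp or more the mean difference turned from 4.70 to −0.308 percentage points, with 1 peak per gene to −0.719, and from the peak midpoint in place of the summit to −0.188, none of them past the threshold. A start codon lay within 200 nt of 5.02% and 9.05% of wide summits and of 13.1% and 17.7% of narrower summits (exact test, adjusted p = 1.07e-18 and 3.95e-15), a difference that was −0.670 within exons of 800 bp or more and did not pass. As a description of their extent, 50.5% and 46.6% of wide peaks ran over a stop codon, against 14.0% and 13.4% of narrower peaks, and 9.81% and 17.7% ran over a start codon, against 10.0% and 13.9%.

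Wide peaks mostly touched 1 canonical exon, and by median they covered less of last exons than of others. Among those whose summit was in an exon of the canonical transcript, the median share of that exon under the peak was 59.4% in replicate 1 and 61.5% in replicate 2, and in 388 and 391 peaks it was at least 80%. Among those touching 1 canonical exon, the peak began within the 250 bp before the exon's 5′ edge in 57.0% and 62.2%, and it ended within the 250 bp before the exon's 3′ edge in 35.6% and 37.0%. Both held for 23.6% and 26.9%, with median offsets of −151 and −131 bp in replicate 1 and −152 and −131 bp in replicate 2. Narrower peaks with both edges in these windows (27.8% and 34.2%) had median offsets of −162 and −68 bp in replicate 1 and −163 and −64 bp in replicate 2. The windows, set after the offsets were seen, fix the sign of these values. Over all wide peaks touching 1 canonical exon, the median offsets were −69 bp at the 5′ edge and −458 bp at the 3′ edge in replicate 1, and −77 and −377 bp in replicate 2.

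The share of the exon covered differed with its position, as did exon length, whose median among wide peaks of replicate 1 was 986 bp in first, 1358 bp in internal and 2122 bp in last exons; the part of length was not tested. In internal exons, both edges of 48.1% and 49.0% of wide peaks matched the exon in this way, against 63.5% and 63.6% of narrower peaks. The median share covered there was 82.3% and 81.7% by wide and 67.6% and 68.4% by narrower peaks. In first exons the match was 52.2% and 55.2%, against 51.1% and 65.2% of narrower peaks. In last exons 5.87% and 6.01% of narrower peaks matched. Of wide peaks in last exons 18.6% and 17.8% matched, with 49.7% and 47.9% of the exon covered. They began near the 5′ edge (median offset −59 and −65 bp) and ended at a median of 645 and 834 bp before the 3′ edge. Narrower peaks in last exons began at a median of 413.5 and 294 bp after the 5′ edge and covered 15.0% and 15.3%. Among wide peaks touching only a last exon, 57.6% and 61.5% began in the 250 bp before its 5′ edge. Of 919 and 759 wide peaks counted in last exons, 67.1% and 68.2% ran over an annotated stop codon. These features were not counted jointly. Of all wide peaks in genes, 2.75% and 1.79% ran over the annotated 3′ end.

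The widest gene peaks found in both replicates lay in last exons, of which they mostly covered the larger part. SLC7A5, the LAT1 transporter of large neutral amino acids, had 2574 bp and 2406 bp, all in the 3′UTR of a 3003 bp last exon, with 164 and 186 reads at the summit. Its summits were 798 bp apart, while 93.5% of the replicate 1 peak was covered in replicate 2. TP53I11, a p53-inducible gene, had 2308 and 2445 bp over 86.4% and 91.6% of a 2670 bp last exon. TFRC, the transferrin receptor, whose 3′UTR is known for iron-responsive elements, had 2728 and 2286 bp over 91.9% and 78.8% of a 2901 bp last exon, with 121 and 88 reads. In all 3 genes the peaks thus lay over most of a long last exon in both replicates.

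CANT1, a calcium-activated nucleotidase, had 2192 and 2240 bp over 94.2% and 93.7% of its last exon, with summits 272 bp apart. ARF3, a small GTPase of the Golgi, had the widest peak of the series, 2826 bp in replicate 1, and 2080 bp in replicate 2, which covered 81.0% and 59.6% of its last exon. LRRC59, a ribosome-associated protein of the endoplasmic reticulum, had 2065 and 2128 bp over 95.0% and 95.2%, yet its summits were 1640 bp apart, the largest distance among overlapping wide peaks. PTTG1IP had 2058 and 2044 bp with 209 and 207 reads, and a −log10 q of 105.3 and 93.8. The widths thus differed by under 100 bp in CANT1, LRRC59 and PTTG1IP while the summits differed by 272 bp or more.

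SLC25A23, a mitochondrial ATP-Mg/phosphate carrier, had 2067 and 2032 bp over 96.0% and 93.0% of its last exon. SDC1, the heparan sulfate proteoglycan syndecan-1, had 2135 and 2028 bp with summits 109 bp apart. PLAGL2, a zinc finger transcription factor, was the exception in the share covered: its peaks of 1967 and 2077 bp covered 38.0% and 40.1% of a 5179 bp last exon. Both began inside the coding part, as did the replicate 2 peaks of TFRC and TP53I11. NDRG1, a gene induced by hypoxia and stress, had 1961 and 2066 bp over 92.1% and 94.7%. In 9 of these 11 genes both peaks ran over a stop codon, the exceptions being SLC7A5, where neither did, and TP53I11, where the replicate 2 peak did.

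**Figure D5:**
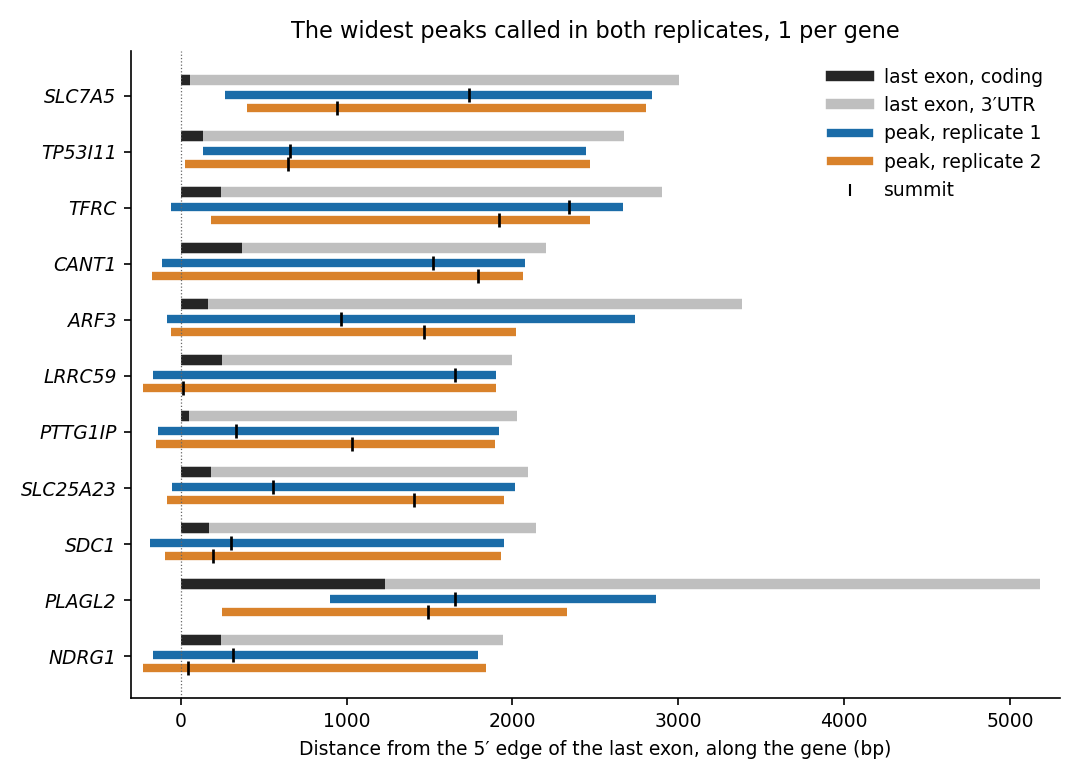
Extent of the widest peaks found in both replicates, 1 pair per gene for 11 genes, along the last exon (bp from its 5′ edge); black is the coding part and grey the 3′UTR of the exon in the canonical transcript, coloured bars are the peaks of replicate 1 and replicate 2, and ticks are summits. Most bars start near 0 and end short of the exon's 3′ edge, with summits up to 1640 bp apart.

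Most genes had 1 wide peak, and some long-exon genes had several. Wide peaks were found in 1222 genes in replicate 1 and in 1106 in replicate 2, of which 1117 and 1001 had 1. Of the 6865 genes with any peak in both lists, 680 (9.91%) had a wide peak in both, which is 55.6% of the replicate 1 genes and 61.5% of the replicate 2 genes. Of the genes wide in replicate 1 alone, 510 had narrower peaks in replicate 2 and 32 had no peak there, and for replicate 2 alone these numbers were 407 and 19. Of the 680, 653 were protein-coding, 18 processed pseudogenes and 7 lncRNA genes.

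FAT1, an atypical cadherin, and KMT2D, a histone methyltransferase of enhancers, had the most, 9 wide peaks each over both lists. FAT1 carried 4 in replicate 1 and 5 in replicate 2, spread over coding exons of 4068, 3283 and 802 bp and the last exon. The widest was 2215 bp, in the 4068 bp exon, where replicate 2 had 956 bp with the summit 10 bp away. In KMT2D the pair in a 1539 bp internal exon had 1452 and 1597 bp and 204 and 210 reads and covered 85.8% and 95.0% of the exon. KMT2D also had a wide peak in its first exon, in the 5′UTR, of 993 and 1140 bp. In both genes wide peaks thus lay mainly in long internal coding exons, unlike the 11 pairs above.

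NCOA6, a coactivator of nuclear receptors, had 8 wide peaks, 4 in each list and at the same 4 places, 2 of them in its 2979 bp exon and the others in exons of 1117 and 885 bp. In the 885 bp exon the peaks were 893 and 839 bp wide, with summits 1 bp apart and a fold of 14.3 and 12.6. TNRC18 had 7 and ASH1L, a histone methyltransferase, had 6. In a 742 bp exon of ASH1L the peaks were 916 and 861 bp wide with 71 and 55 reads and summits 13 bp apart. MYO18A, NECTIN1 and SEC16A also had 6 each and followed ASH1L only by alphabetical order. Places with a wide peak were wide in both lists at all 4 in NCOA6, at 4 of 5 in FAT1 and at 3 of 6 in KMT2D.

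A smaller set of wide peaks ran over several exons and the introns between them. Of wide peaks in genes, 103 (7.65%) in replicate 1 and 114 (9.28%) in replicate 2 touched 2 or more canonical exons, against 5.90% and 6.35% of narrower peaks, with no test made. In 18 pairs, both wide peaks touched 3 or more. The widest was ACTG1, cytoplasmic gamma-actin, with 1756 and 1647 bp over 3 exons and 185 and 175 reads at summits 16 bp apart. ACTB, beta-actin, had 1451 and 1462 bp over 3 exons with 174 and 173 reads at summits 11 bp apart. ERBB2, the receptor tyrosine kinase amplified in this line, had 1487 and 1352 bp over 5 and 4 exons with 160 and 180 reads. CTSD, the lysosomal protease cathepsin D, had 1344 and 1479 bp over 3 exons. In these genes a run of exons and introns lay under 1 called peak in both replicates.

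Named gene groups, chosen with earlier results of these data known, differed in how often they held wide peaks. They are given as counts, beside the 9.91% of genes over all. Of 8 actin and tubulin genes, 7 had a peak in both lists and 5 were wide in both: ACTB, ACTG1, TUBA1B, TUBA1C and TUBB. TUBA1B, an alpha-tubulin, had 1277 and 1198 bp in its last exon with 251 and 161 reads and summits 1 bp apart, but the 31 bases around these summits occur at 2 places in the genome. The cytoskeletal genes thus had wide peaks mostly in coding sequence, and near-identical gene copies make the assignment of TUBA1B reads uncertain.

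Of 12 junction genes, 11 had a peak in both and CLDN3, CLDN4, JUP and TJP1 were wide in both. JUP, the desmosome and adherens junction protein plakoglobin, had 1288 and 1320 bp over 85.9% and 86.2% of its last exon with 238 and 251 reads. CLDN3, a claudin of tight junctions encoded by 1 exon of 1274 bp, had 1182 and 1365 bp with 25 and 58 reads. TJP1, the tight junction scaffold ZO-1, had 878 and 901 bp in an internal coding exon, and 1503 bp in the 3′UTR in replicate 1, where replicate 2 had 730 bp. CDH1, the epithelial cadherin, was wide in replicate 1, with 950 bp against 389 bp, and PKP2 in replicate 2, with 862 bp against 715 bp. Of 15 genes of the ERBB2 amplicon, 9 had a peak in both, and ERBB2 and PGAP3 were wide in both, PGAP3 with 2146 and 1767 bp and 183 and 189 reads.

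Of 86 cytosolic ribosomal protein genes, 51 had a peak in both and RPL13A, RPL4 and RPS2 were wide in both. RPS2 had 1184 and 1233 bp over 4 exons, RPL4 1016 and 882 bp over 3, and RPL13A 858 and 884 bp over 3. Of 12 translation factors, 10 had a peak in both and none was wide in both, although PABPC1, the poly(A)-binding protein, had 894 bp in replicate 2 over a peak of 796 bp in replicate 1, and EIF3A had 856 bp over 780 bp. These genes were therefore close to the threshold in both lists. Of 9 chaperones, 8 had a peak in both and HSPA8 was wide in both. Of 5 keratins, 3 had a peak in both and KRT19 was wide in both. All 10 large scaffold proteins had a peak in both, and AHNAK and PLEC were wide in both, PLEC at different places in its last exon. All 6 KMT2 methyltransferases had a peak in both, and KMT2C and KMT2D were wide in both.

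Of 18 G1-S genes, a cell cycle step that the study follows, 8 had a peak in both and none was wide in both, a count too small to set against the 9.91% over all genes. CCND1, cyclin D1, had a 962 bp peak near the end of its 3′UTR in replicate 1, where replicate 2 had peaks of 374 and 534 bp. CDK6, a cyclin D-dependent kinase, had 857 bp in its 3′UTR and 824 bp in an intron in replicate 1, where the widest replicate 2 peaks were 311 and 715 bp. MYC reached 659 bp in replicate 1 and 740 bp in replicate 2, and CDC25A, a phosphatase that activates cyclin-dependent kinases, had 472 bp with 13 reads in replicate 1 and 295 bp with 7 reads in replicate 2, in different exons. IGF2BP3 itself had a 1292 bp peak in its 3′UTR in replicate 1 with 54 reads, where replicate 2 had 307 bp with 24 reads and a summit 35 bp away. CCND1, CDK6 and IGF2BP3 thus crossed the threshold in 1 replicate, in the same region as a narrower peak of the other. Of 8 lncRNA genes, 5 had a peak in both and SNHG1 was wide in both, and NEAT1, with 1313 and 1325 bp, and NORAD, with 889 bp, were wide in replicate 2.

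GGAC was searched on the gene's strand within 50 nt of the summit on either side. It was present in 31.2% and 36.5% of wide and in 29.0% and 31.7% of narrower peaks (adjusted p = 0.0821 and 0.00289, Fisher's exact test), and TGGAC, which contains GGAC, was present in 11.7% and 12.04% against 10.0% and 10.1% (adjusted p = 0.0591 in each). Since both replicates had to pass, neither motif was called, with differences of 2.24 and 4.72 points for GGAC and 1.73 and 1.91 points for TGGAC. In windows of 100 nt on either side both motifs passed, with mean differences of 5.57 and 4.27 points. Over the whole peak, 93.6% and 96.7% of wide peaks held GGAC, against 68.5% and 73.5% of narrower peaks, but per kb the density was 3.88 in wide and 3.75 in narrower peaks of replicate 1, with 4.82 and 4.24 in those of replicate 2. Wide peaks thus differed in both length and density, and the part of each in the whole-peak share was not tested. The median GC content of the summit windows was 52.5% against 49.5% and 60.4% against 55.4%, and its part in the motif shares was not tested.

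Most wide peaks belonged to protein-coding genes, 94.4% and 95.4%, against 90.1% and 91.0% of narrower peaks (adjusted p = 2.15e-07 and 4.82e-08, Fisher's exact test). LncRNA genes held 1.78% and 1.79% against 4.02% and 4.09% (exact test, adjusted p = 1.97e-05 and 2.11e-05). Processed pseudogenes, which are copies of spliced mRNAs, held 3.34% and 2.03% against 4.48% and 3.40% and were not called (exact test, adjusted p = 0.0537 and 0.00987). Of the 45 and 25 wide peaks in processed pseudogenes, 29 and 17 had summit 31-mers that occur elsewhere in the genome, so reads of the parent gene cannot be told apart there. Over all wide peaks, 89.2% and 92.2% had a unique summit 31-mer, against 90.7% and 91.7% of narrower peaks. In no annotated gene lay 25 and 18 wide peaks, 21 and 18 of which recurred, and the widest, at chr7:27456563-27459000, had 2438 bp in replicate 1 and 2323 bp in replicate 2 with summits 64 bp apart and a 31-mer with 2 copies in the genome.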

How the data were processed

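LACE-seq of IGF2BP3 was analysed from 2 peak lists, 1 per replicate, on hg38. Per the labels, the submitters' processing notes name fastp, HISAT2 and MACS2, whereas the study's methods describe Bowtie and Piranha; the deposited lists have the MACS2 layout, and versions were not given in the sources used here. The deposited columns hold positions, a fold enrichment (ratio) over the local level, −log10 p-values and −log10 q-values. The deposited score was not used. The authors called peaks in each replicate separately and gave no strand, so peaks took the strand of their gene. The study calls the samples biological replicates.

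Width was end minus start. Pileups were recovered from fold and p under the Poisson model for all 41941 peaks. Classes came from GENCODE 44 at the summit. Shares of wide and narrower peaks were compared in each replicate by Fisher's exact test (2-sided, scipy 1.17.1), Benjamini-Hochberg adjusted within its family, and called when both replicates had an adjusted p below 0.05 and the same sign. Intervals are Wilson 95% and cover counting error only. The test was tested on simulated data. Genes were named by rule: the widest pairs of 12 genes, the 5 genes with most wide peaks, the 3 widest unmatched peaks of each list, up to 3 genes of each list, and MYC, CCND1, CDC25A and IGF2BP3; genes named for splitting or for several exons were added later. The members and lists were chosen with earlier results of these data known. Alternatives changed the width threshold, comparison peaks, overlap, annotation point and windows. Some peaks that the rules pick are not reported here. Wide peaks on unplaced scaffolds (3 and 2) had no class.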

Additional observations from a re-analysis of the deposited data

How the results depend on the processing

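Of 147 alternative values for 18 results over both replicates, 122 counted as unchanged because they kept their side of the threshold. Among these, GGAC turned from 3.48 to −1.38 percentage points against narrower peaks of 500 bp or more, with neither value past the test. The others kept their direction too. Recurrence, width in the other replicate, the 3′UTR, non-coding exons, introns, protein-coding genes, exon length and the last exon kept direction and side of the threshold under every alternative run on them. The recurrence difference was smallest by summits within 50 bp (5.84 percentage points). No alternative compared peaks of like pileup, where that measure was lower in wide peaks. The width rule favours exon length and the last exon, so their steadiness cannot show a trait apart from it. The values below are mean differences in percentage points, wide minus narrower, and the causes were not tested. A threshold of 1000 bp left a mean of 664 wide peaks in place of 1311.5, and brought processed pseudogenes (−2.53) and TGGAC (2.95) past the test, as 700 bp did for GGAC (4.67). Against narrower peaks of 500 bp or more, coding sequence reversed (−1.49), no gene (−0.678), lncRNA (−1.07) and the stop codon (0.770) no longer passed, and pseudogenes passed (−2.05). Against narrower peaks at or above the 75th percentile of −log10 q, coding sequence (5.30) and the stop codon (0.804) no longer passed. With 1 peak per gene the stop codon reversed (−0.719) and pseudogenes passed (−6.00). With unique summit 31-mers, pseudogenes (−1.51), GGAC (4.12) and TGGAC (2.12) passed. The stop codon no longer passed within 100 nt (1.69) and reversed from the midpoint (−0.188). Windows of 100 nt on either side brought GGAC (5.57) and TGGAC (4.27) past the test, and windows at the midpoint GGAC (5.06). Within exons of 800 bp or more, chosen after seeing the data, coding sequence (3.79), the 5′UTR (−0.536) and the start codon (−0.670) no longer passed and the stop codon reversed (−0.308).

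Each replicate alone gave 1249 to 1374 wide peaks, −1.37 to −1.13 for pseudogenes and 2.24 to 4.72 for GGAC, which passed in replicate 2. No paired analysis was possible because there was 1 group. With peak lists alone, the depth of the libraries and regions just under the caller's threshold could not be examined, and no background library was analysed here.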

Other observations

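The mitochondrial genome held 5 wide peaks in replicate 1 and 2 in replicate 2. The ribosomal RNA genes MT-RNR1 and MT-RNR2 had separate peaks of 1014 and 1500 bp in replicate 1, and 1 peak of 2624 bp, the widest of its list, over the same stretch in replicate 2. The gene MT-CO1, for a cytochrome c oxidase subunit, had 880 and 853 bp. In replicate 1, MT-ND5 had 943 bp and MT-CYB 1155 bp, where replicate 2 had 438 bp in MT-ND5 and 674 and 361 bp in MT-CYB. These peaks had high pileups, from 229 to 306 reads, and low folds, from 1.63 to 2.82, against a median fold of 7.10 and 7.04 over all wide peaks.

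Genes of small nucleolar, small Cajal body or small nuclear RNAs lay under 9 wide peaks in replicate 1 and 8 in replicate 2 (0.656% and 0.642%, against 0.867% and 1.31% of narrower peaks, with no test made). Of these, 6 in each list met a wide partner, and they were the same places in SNHG1, HSPA8, RPL4, RPS2 and RPL13A. SNHG1, a host gene of small nucleolar RNAs, had 864 and 873 bp over SNORD22 and SNORD30, and 809 and 836 bp over SNORD25, SNORD26 and SNORD27. HSPA8 had 1149 and 1121 bp over SNORD14C and SNORD14D, and RPL13A 858 and 884 bp over SNORD33, SNORD34 and SNORD35A. Without strand, reads of host exons and of the small RNA in the intron were part of 1 peak and cannot be told apart here.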
